A study of Mus musculus with 18 samples.

Results

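The liver turns the nitrogen of amino acids into urea and feeds their carbon into glucose and energy metabolism, and the 40 genes described here encode that machinery: 6 urea cycle enzymes, 2 mitochondrial carriers of the cycle, and 32 enzymes that break down amino acids. They were taken by symbol from textbook pathways, with earlier results of these data known, and all 40 were found among the 24394 gene symbols used. Of these 40, 39 passed the filter on low counts and were tested among 11218 genes. Amt, a subunit of the glycine cleavage system, did not: it had a count of 0 in 13 of 18 livers and at most 4 counts in any liver.

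The RNA came from 18 mouse livers in 3 groups of 6. The first group, called Stat3-deleted here, came from tumour-bearing mice with the genotype Alb-Cre+/+ STAT3f/f, in which the albumin promoter drives Cre, mainly in hepatocytes, to remove a floxed part of Stat3; recombination in other liver cells was not measured. The second group came from tumour-bearing WT mice and the third from control WT mice. The tumour was PDA.69, a line of pancreatic ductal adenocarcinoma with few T cells derived from KPC mice; the labels name this line for the control livers too. The sources used here do not give sex, age, strain, the site and time of implantation or whether WT mice carried Cre or the floxed allele, and none of the 3 groups holds tumour-free mice with the Stat3 deletion. The number ranges in the labels differ between the Stat3-deleted livers and all WT livers, so that number range, genetic background and deletion cannot be told apart. Nothing in the labels says that each liver came from its own mouse, so p-values measure the spread between these samples.

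In the urea cycle, ammonia and bicarbonate are joined inside mitochondria, passed to ornithine to make citrulline, and, with a second nitrogen from aspartate, released in the cytosol as urea. Transaminases and glutaminase deliver the nitrogen as glutamate, ammonia and aspartate, while separate chains of enzymes degrade the carbon skeletons of phenylalanine and tyrosine, histidine, serine, methionine, proline, lysine and the branched-chain amino acids. In liver these genes are known to respond to feeding, glucagon and glucocorticoids, and many of them are found mainly in hepatocytes around the portal vein.

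Libraries held 5204378 to 9532978 counts of 3′ tags, which are read from the end of each polyadenylated transcript. Levels are given as CPM, counts scaled to a common library size with TMM factors (trimmed mean of M values), and such levels differ between genes also through how well each 3′ end is primed and annotated. Stat3 had 99.4 to 132 CPM in Stat3-deleted, 163 to 264 CPM in tumour-bearing WT and 93.6 to 148 CPM in control livers; a 3′ tag can lie outside the floxed part, so this level checks nothing about the deletion. Saa1, which encodes a serum amyloid A protein of the acute phase, had 10.7 to 161, 5493 to 48555 and 115 to 559 CPM in the same groups. In bulk tissue, fewer cells of a type and less RNA per cell cannot be told apart.

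A single liver, tumour-bearing WT replicate 6, stood apart in these genes and is described before the comparisons. Of the 39 tested members 19 (48.7%) had their highest level of all 18 livers there, against 12.3% of all tested genes. Its median difference to the median of the other 5 livers of its group was 0.63 on the log2 scale over the members and -0.02 over all tested genes. In this liver Bhmt had 2749 CPM against 418 to 598 CPM in the other 5, Got1 had 1627 against 265 to 342 CPM, Asl had 933 against 149.9 to 231 CPM, and Mat1a had 16175 against 3143 to 4910 CPM. It was not uniformly high: Slc25a13, Qdpr and Agxt had their lowest level of the 18 livers there. The same liver had the lowest TMM factor (0.750, against 0.890 to 1.114 in the rest) and the highest summed level of 6 hepatocyte markers (154011 CPM, against 60773 to 116693 CPM in the livers of the other groups). CPM are divided by the TMM factor, so the ranks and levels of this liver depend on that scaling. As a share of all counts, which does not use the factor, the members took 3.41% there. That share was 1.95% to 2.44% in Stat3-deleted and 2.01% to 2.75% in control livers. What sets this liver apart was not tested. Values without it are given for the counts of calls and for some of the members it moves. Because this liver was picked out by the members' own levels, fits without it are not independent of that choice.

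**Figure D1:**
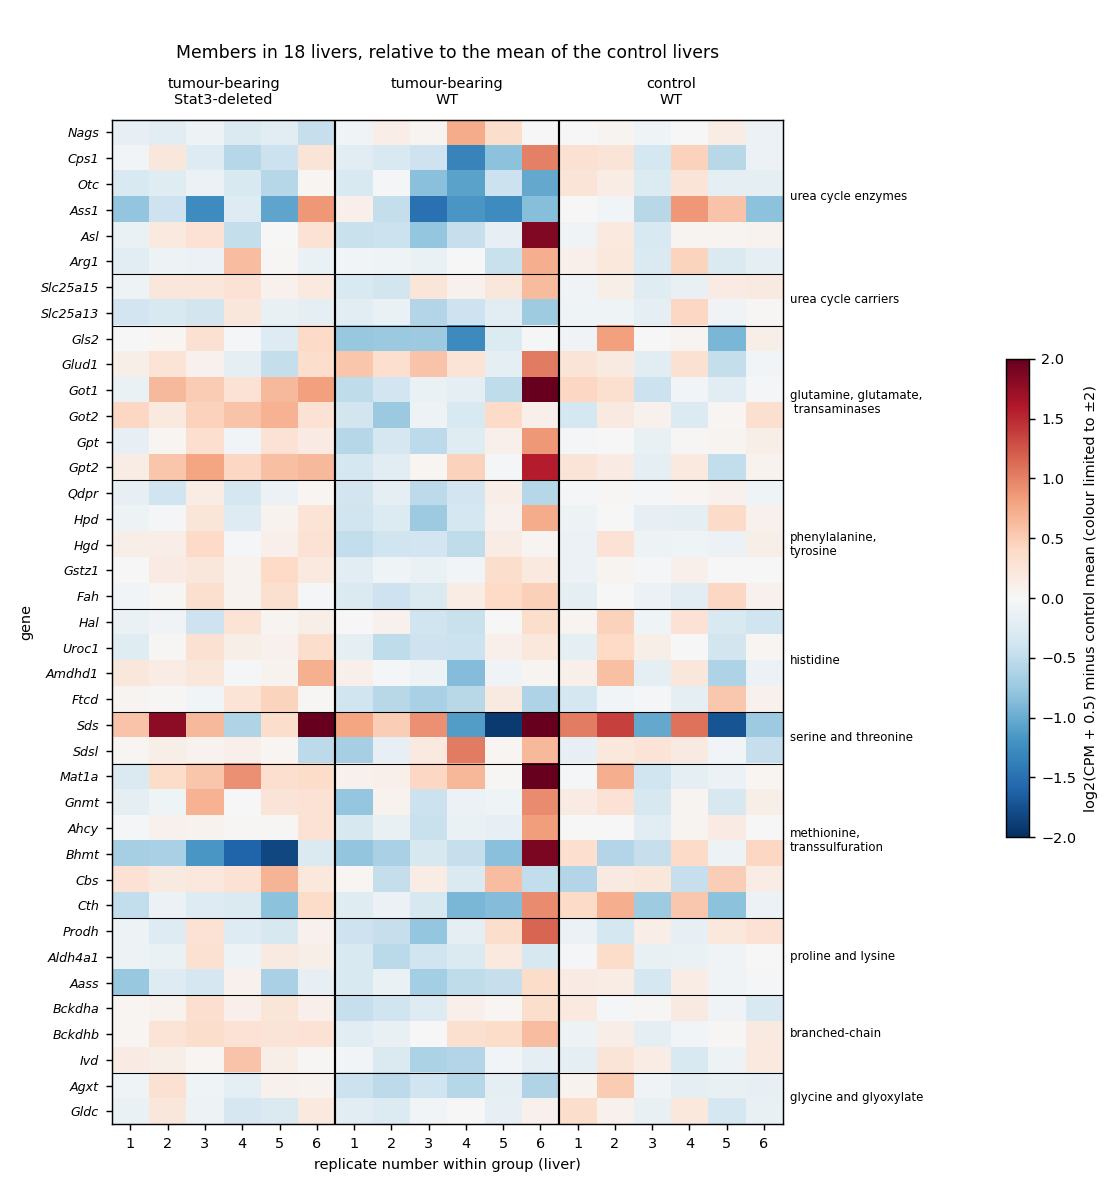
Levels of the 39 tested members (rows, by pathway branch) in 18 livers (columns, by group and replicate), as log2(CPM + 0.5) minus the mean of the 6 control livers; red is above and blue below that mean, with colours limited to 2 either way. Tumour-bearing WT replicate 6 is dark red for Asl, Got1, Gpt2, Mat1a and Bhmt, which no other liver of its group is.

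Between Stat3-deleted and tumour-bearing WT livers, 4 of the 39 members passed the test at an adjusted p of 0.05 (10.3%), against 686 of all 11218 tested genes (6.12%). Of the 4, 3 were higher (2.89% of all genes) and 1 was lower (3.23%). Agxt, which turns glyoxylate into glycine, Got2, the mitochondrial aspartate aminotransferase, and Ivd, a dehydrogenase of leucine breakdown, rose in Stat3-deleted livers, and Nags, whose product makes the activator of the urea cycle, fell. The members' median log2 fold change was 0.12, with 29 above 0 and 10 below. That of all tested genes was -0.03, with 45.9% above 0. Without tumour-bearing WT replicate 6, 8 members passed, against 8.04% of all tested genes: Nags was lower and Asl, Gls2, Got1, Got2, Gpt2, Hgd and Ivd were higher, and Agxt missed the threshold (adjusted p = 0.0508). In that fit 35 members lay above 0 and 4 below, where 47.2% of all tested genes lay above 0. The median was 0.30 over the members and -0.03 over all tested genes. Replicate 6 was picked out by high levels of these same members, so leaving it out moves their values upwards here by choice. The shares of all genes beside these counts are no neutral measure of them.

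The calls in this comparison lay near the threshold (adjusted p of 0.0357 to 0.0498), and leaving out 1 liver often removed them. With 1 liver left out at a time, leaving out replicate 4 of the tumour-bearing WT group left no call, and so did leaving out Stat3-deleted replicate 5. There was 1 call without Stat3-deleted replicate 1, 2, 3, 4 or 6, and also without replicate 2 or replicate 3 of the tumour-bearing WT livers. There were 2 calls without replicate 1 of the tumour-bearing WT livers, 6 without its replicate 5 and 3 to 5 without any one control liver. Over these 18 fits the call of Nags was kept in 11, of Got2 in 10, of Agxt in 9 and of Ivd in 4, and their fold changes kept their sign in each. DESeq2 and limma voom each called 7 members (DESeq2 gave no p-value for Asl and Got1), Nags lower and Gls2, Got2, Hgd, Ftcd, Ivd and Agxt higher, where they called 6.79% and 9.78% of all genes. Scaling by library totals alone gave the same 6 higher members, against 6.19% of all genes, while Nags missed the threshold (adjusted p = 0.103). Under that scaling the median over all tested genes shifted by 0.07, 61.1% of calls were higher, against 47.2% with TMM, and it turned the sign of Arg1, Cth and Aass, none of which passed.

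Between tumour-bearing WT and control WT livers no member passed the test with edgeR, against 252 of 11218 genes (2.25%, of which 1.76% were higher and 0.490% lower). For no member were all 6 tumour-bearing WT livers above, or all below, all control livers, as they were for 1.05% and 0.464% of all genes. At an unadjusted p under 0.05 there were 10 of 39 members, 8 lower and 2 higher, where 16.2% of all genes reached that level and 7.56% were lower; DESeq2 called 2 members (Otc and Agxt, both lower; 3.51% of all genes) and limma voom with quality weights 1 (Gls2, lower; 2.19%). The median log2 fold change was -0.07 over the members and 0.00 over all tested genes. Under library totals alone the all-gene median shifted by -0.19 and that of the members was -0.27, which turned the sign of 10 members, called 2 (Agxt and Gls2, lower; 2.60% of all genes), and put 39.4% of calls among the higher, against 78.2% with TMM. Without tumour-bearing WT replicate 6 no member passed either, against 1.81% of all genes. In that fit 34 of 39 lay below 0, with a median of -0.26 against -0.02 over all genes, of which 47.6% lay above 0. There 17 members had an unadjusted p under 0.05, all of them lower, where 7.19% of all genes were lower at that level. Since that liver was picked out by high levels of these same members, leaving it out moves their values downwards here by choice. The WT livers fall into a lower and a higher range of label numbers, with replicates 1 to 3 and 4 to 6 of both groups: within each range, 3 livers against 3, no member passed, against 0.349% of all genes in the lower and 0.459% in the higher range, and the members' median was -0.37 in the lower and 0.11 in the higher range, which holds replicate 6.

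Between Stat3-deleted and control WT livers no member passed with edgeR, against 544 of 11218 genes (4.85%, of which 2.19% were higher and 2.66% lower). No member separated the livers of both groups, as 1.98% of all genes did upwards and 1.84% downwards. There were 3 members at an unadjusted p under 0.05, Got2 and Gpt2 higher and Bhmt lower, where 20.8% of all genes reached that level; DESeq2 called 0 (7.09% of all genes) and limma voom 2 (Got2 higher, Bhmt lower; 11.7%). The median log2 fold change was 0.04 over the members and -0.01 over all tested genes; with library totals alone the second moved by -0.12, the first was -0.08, 12 members turned sign, no member passed (4.56% of all genes), and 27.2% of calls were higher, against 45.2% with TMM. Leaving out tumour-bearing WT replicate 6, which is in neither group but enters the shared fit, brought 2 members past the threshold, against 6.95% of all genes: Bhmt fell by 0.98 log2 units (SE 0.23, adjusted p = 0.0134) and Gpt2 rose by 0.51 (SE 0.15, adjusted p = 0.0476).

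**Figure D2:**
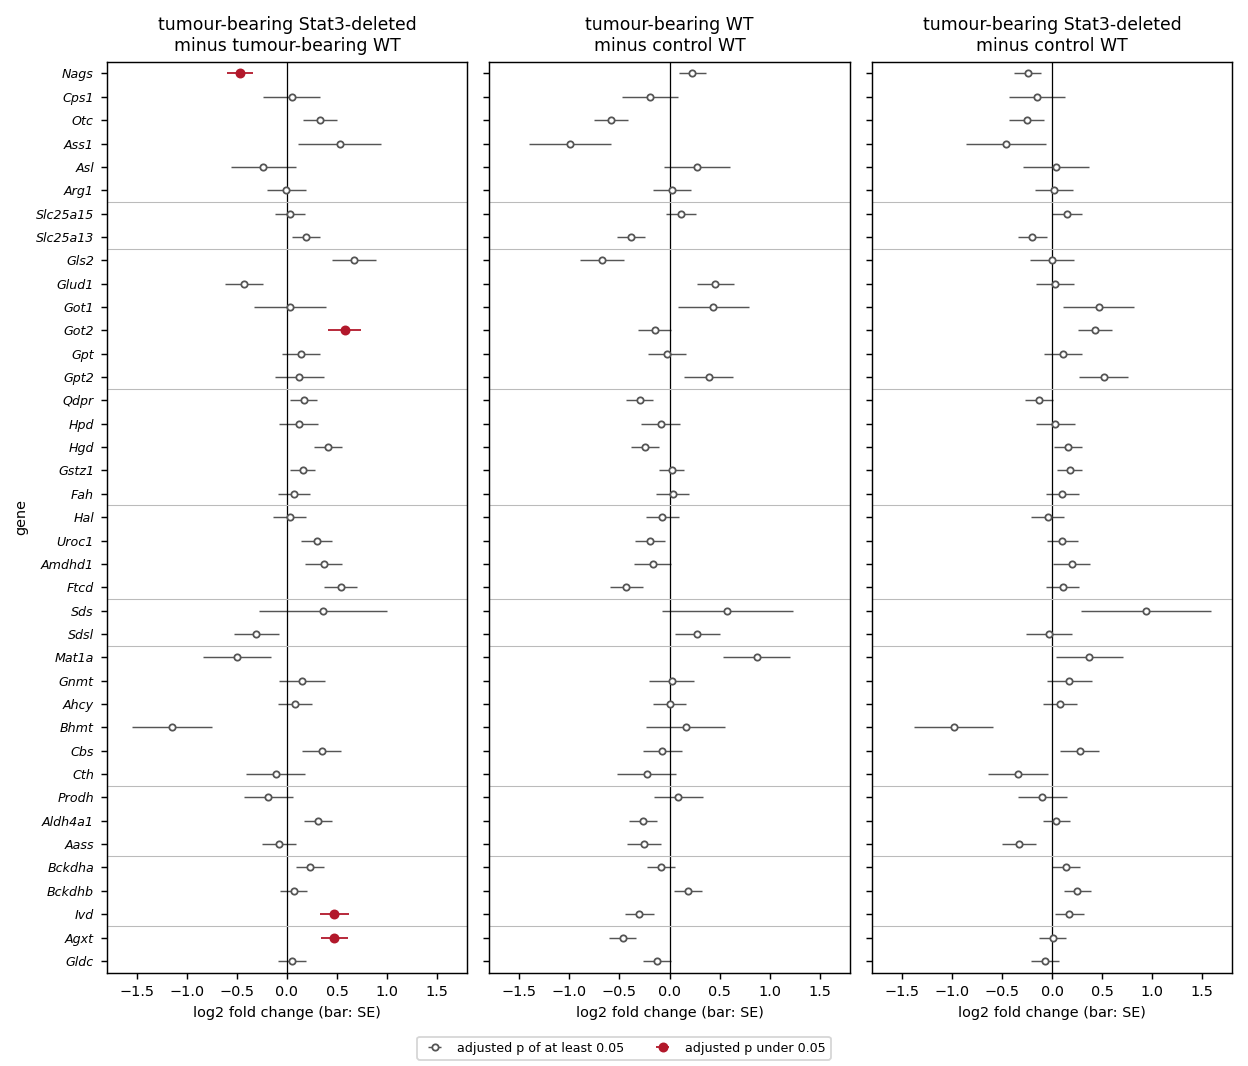
Log2 fold change with its standard error (bar) of the 39 tested members in 3 comparisons of 6 livers against 6, with horizontal lines between pathway branches. Filled points passed an adjusted p of 0.05: Nags (-0.47), Got2 (0.58), Ivd (0.47) and Agxt (0.47) in Stat3-deleted against tumour-bearing WT livers, and none in the other 2 comparisons, which share livers with it.

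The promoters of the 4 members that passed are shown because STAT3 acts by binding DNA, from 250 bases before to 50 bases after the transcription start, from RefSeq on GRCm38.p6, 5′ to 3′ on the gene's strand. They are Nags (chr11:102145263-102145562, plus strand), Got2 (chr8:95888352-95888651, minus strand), Ivd (chr2:118861744-118862043, plus strand) and Agxt (chr1:93134990-93135289, plus strand). Capitals mark a match to the STAT motif TTCNNNGAA, searched on both strands.
Nags: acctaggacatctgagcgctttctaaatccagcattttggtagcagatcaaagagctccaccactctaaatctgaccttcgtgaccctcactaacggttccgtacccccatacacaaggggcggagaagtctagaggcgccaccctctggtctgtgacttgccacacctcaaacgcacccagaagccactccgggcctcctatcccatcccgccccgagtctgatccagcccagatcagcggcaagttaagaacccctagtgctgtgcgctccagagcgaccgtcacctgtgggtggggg
Got2: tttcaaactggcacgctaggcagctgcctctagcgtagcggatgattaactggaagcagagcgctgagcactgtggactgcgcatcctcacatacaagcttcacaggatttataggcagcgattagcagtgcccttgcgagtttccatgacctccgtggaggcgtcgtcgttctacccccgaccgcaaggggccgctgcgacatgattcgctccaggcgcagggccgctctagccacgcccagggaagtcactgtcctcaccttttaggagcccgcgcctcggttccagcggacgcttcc
Ivd: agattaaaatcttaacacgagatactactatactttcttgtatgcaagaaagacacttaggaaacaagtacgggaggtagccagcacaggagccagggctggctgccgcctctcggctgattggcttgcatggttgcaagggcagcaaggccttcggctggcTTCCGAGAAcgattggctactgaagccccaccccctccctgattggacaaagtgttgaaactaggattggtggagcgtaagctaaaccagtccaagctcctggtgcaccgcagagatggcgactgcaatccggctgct
Agxt: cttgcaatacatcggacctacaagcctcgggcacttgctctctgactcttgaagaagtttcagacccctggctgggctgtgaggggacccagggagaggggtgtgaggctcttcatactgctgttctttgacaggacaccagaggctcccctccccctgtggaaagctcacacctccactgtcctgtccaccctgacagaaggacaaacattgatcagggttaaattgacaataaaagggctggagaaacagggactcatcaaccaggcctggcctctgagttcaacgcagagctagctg
Of these, Ivd held 1 match, which starts 88 bases before the start site of the promoter shown. That site lies downstream of the first base of the Ivd gene as given further on, chr2:118861959. Promoters were found for 31 of the 40 members (34 promoters), of which 2 (5.88%) held the motif, those of Ivd and Prodh, against 8.3% of 32851 promoters of the same length. The C/EBP motif TTGCNNAA was in 11.8% of the members' promoters and 10.8% of all, and TGACG, the core of the cAMP response element, in 14.7% and 20.8%. A match is only a stretch of letters, and binding was not measured.

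Of the urea cycle enzymes, Nags makes N-acetylglutamate, without which the cycle's entry enzyme is inactive. Nags had 56.0, 66.5 and 72.3 CPM (lowest, median and highest) in Stat3-deleted, 73.3, 82.2 and 130.2 CPM in tumour-bearing WT and 71.6, 77.2 and 85.5 CPM in control livers. Each Stat3-deleted liver lay below each tumour-bearing WT liver, a separation in that direction that 1.90% of all tested genes showed, while the highest Stat3-deleted liver overlapped the control range. Nags fell by 0.47 log2 units against tumour-bearing WT livers (SE 0.13, adjusted p = 0.0357), with 6 of 6 livers below the mean of that group. In that comparison all 6 Stat3-deleted livers lay below the mean for 12.7% of all tested genes and above it for 14%. Against control livers the log2 fold change of Nags was -0.24 (SE 0.13, adjusted p = 0.305). Nags lies on chromosome 11 (GRCm38.p6, chr11:102145513-102149528), 1.21 Mb from Stat3, so that variants inherited with the floxed allele and the loss of Stat3 cannot be told apart here. Of 67 tested genes within 2 Mb of Stat3, 4 (5.97%) passed in the same comparison, Nags among them, 1 higher and 3 lower. Of all genes 6.12% passed, 2.89% higher and 3.23% lower.

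The enzymes of the cycle itself gave no call. Cps1, which makes carbamoyl phosphate, had 642, 858 and 1137 CPM in Stat3-deleted, 378, 743 and 1921 CPM in tumour-bearing WT and 647, 1008 and 1315 CPM in control livers, with overlap of all 3 groups. Without tumour-bearing WT replicate 6 the log2 fold change of Cps1 against tumour-bearing WT livers was 0.47 (SE 0.21, adjusted p = 0.205), against 0.05 with it, and that of tumour-bearing WT against control livers was -0.62 (SE 0.22, adjusted p = 0.164), against -0.20. Otc, which joins carbamoyl phosphate to ornithine, had 264, 326 and 404 CPM in Stat3-deleted, 186, 255 and 384 CPM in tumour-bearing WT and 324, 390.2 and 471 CPM in control livers. All 6 tumour-bearing WT livers were below the control mean for Otc, and the log2 fold change was -0.58 (SE 0.17, adjusted p = 0.0794). Of all tested genes, 6.43% had all 6 tumour-bearing WT livers below the control mean and 8.59% had them above it. Against tumour-bearing WT livers the Stat3-deleted livers gave 0.33 for Otc (SE 0.17, adjusted p = 0.301).

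Asl, which splits argininosuccinate into arginine and fumarate, had 185, 275 and 315 CPM in Stat3-deleted, 149.9, 190.4 and 933 CPM in tumour-bearing WT and 209, 267 and 293 CPM in control livers. The log2 fold change of Stat3-deleted against tumour-bearing WT livers was -0.23 (SE 0.33, adjusted p = 0.749) with all livers and 0.50 (SE 0.15, adjusted p = 0.0398) without tumour-bearing WT replicate 6. Arg1, which releases urea, had 1595 to 2826 CPM in Stat3-deleted, 1351 to 3042 CPM in tumour-bearing WT and 1503 to 2509 CPM in control livers, with log2 fold changes of at most 0.02 in size in the 3 comparisons with all livers; without tumour-bearing WT replicate 6 Stat3-deleted against tumour-bearing WT livers gave 0.18 and tumour-bearing WT against control livers -0.17, with SEs of 0.17.

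Ass1, which makes argininosuccinate and is known as an abundant liver enzyme, had a far lower level than the rest of the cycle: 1.93 to 10.1 CPM in Stat3-deleted, 1.57 to 5.72 CPM in tumour-bearing WT and 2.78 to 10.2 CPM in control livers, or 13 to 78 counts in a library. The annotation holds a near copy, Gm5424, with 99.516% identity over 1240 of the 1696 bases of the Ass1 transcript, and Gm5424 had 0 counts in all 18 livers. The last 300 bases of Ass1 transcripts, near which 3′ tags lie, gave no match to another gene at 97% identity over at least 100 bases. What keeps the Ass1 count low was not tested, and its fold changes (-0.99, SE 0.41, adjusted p = 0.227 for tumour-bearing WT against control livers) are read as uncertain.

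Neither carrier of the cycle passed the test. Slc25a15, which exchanges ornithine and citrulline across the mitochondrial membrane, had 342 to 446 CPM in Stat3-deleted, 284 to 565 CPM in tumour-bearing WT and 309 to 415 CPM in control livers. Slc25a13, the aspartate and glutamate carrier that supplies the aspartate of the cycle, had 353 to 540 CPM in Stat3-deleted, 282 to 420.2 CPM in tumour-bearing WT and 410 to 614 CPM in control livers. For Slc25a13 all 6 tumour-bearing WT livers were below the control mean (log2 fold change -0.38, SE 0.14, adjusted p = 0.174).

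Among the enzymes that supply nitrogen, Got2 changed. Got2 (chr8:95864133-95888401), which makes aspartate in mitochondria, had 543, 641 and 763 CPM in Stat3-deleted, 283, 411 and 615 CPM in tumour-bearing WT and 369, 494 and 590.4 CPM in control livers. Of the tumour-bearing WT livers, only replicate 5 reached the Stat3-deleted range. Got2 rose by 0.58 log2 units against tumour-bearing WT livers (SE 0.17, adjusted p = 0.0398), with 6 of 6 livers above their mean, as for 14% of all tested genes. Against control livers it gave 0.43 (SE 0.17, adjusted p = 0.135), again with 6 of 6 livers above the mean. In that second comparison 14.7% of all tested genes had all 6 Stat3-deleted livers above the control mean and 12.8% had them below it.

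Gls2, the liver glutaminase that frees ammonia beside the urea cycle, had 153, 185 and 237 CPM in Stat3-deleted, 74.9, 110.0 and 178 CPM in tumour-bearing WT and 96.8, 186 and 322 CPM in control livers. In 5 of 6 tumour-bearing WT livers Gls2 was below the lowest Stat3-deleted liver, and the exception was replicate 6. The log2 fold changes were 0.67 (SE 0.22, adjusted p = 0.0743) for Stat3-deleted against tumour-bearing WT livers and -0.67 (SE 0.22, adjusted p = 0.117) for tumour-bearing WT against control livers. Without replicate 6 they were 0.82 (SE 0.22, adjusted p = 0.0224) and -0.82 (SE 0.22, adjusted p = 0.0558). Within the label-number ranges the second was -1.06 in the lower and -0.27 in the higher range.

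Got1 and Gpt2, the cytosolic aspartate and the mitochondrial alanine aminotransferase, depended on the same liver. Got1 had 344, 561 and 664 CPM in Stat3-deleted, 265, 309 and 1627 CPM in tumour-bearing WT and 278, 363 and 502 CPM in control livers. The log2 fold change of Got1 in Stat3-deleted against tumour-bearing WT livers was 0.03 (SE 0.36, adjusted p = 0.976) with all livers and 0.84 (SE 0.17, adjusted p = 0.00357) without replicate 6. Gpt2 had 197, 265 and 308 CPM in Stat3-deleted, 139.5, 179 and 527 CPM in tumour-bearing WT and 126, 193 and 212 CPM in control livers, with values of 0.12 (SE 0.25, adjusted p = 0.836) and 0.53 (SE 0.16, adjusted p = 0.0467) for the same fits. Glud1, which releases ammonia from glutamate, had 515 to 924 CPM in Stat3-deleted, 636 to 1489 CPM in tumour-bearing WT and 520.4 to 887 CPM in control livers (log2 fold change -0.43 against tumour-bearing WT livers, SE 0.19, adjusted p = 0.204; -0.28 without replicate 6). Gpt, the cytosolic alanine aminotransferase, had log2 fold changes from -0.02 to 0.14 in the 3 comparisons with all livers. Without replicate 6, Gpt gave 0.41 (SE 0.13, adjusted p = 0.0586) for Stat3-deleted against tumour-bearing WT livers and -0.30 (SE 0.13, adjusted p = 0.287) for tumour-bearing WT against control livers.

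**Figure D3:**
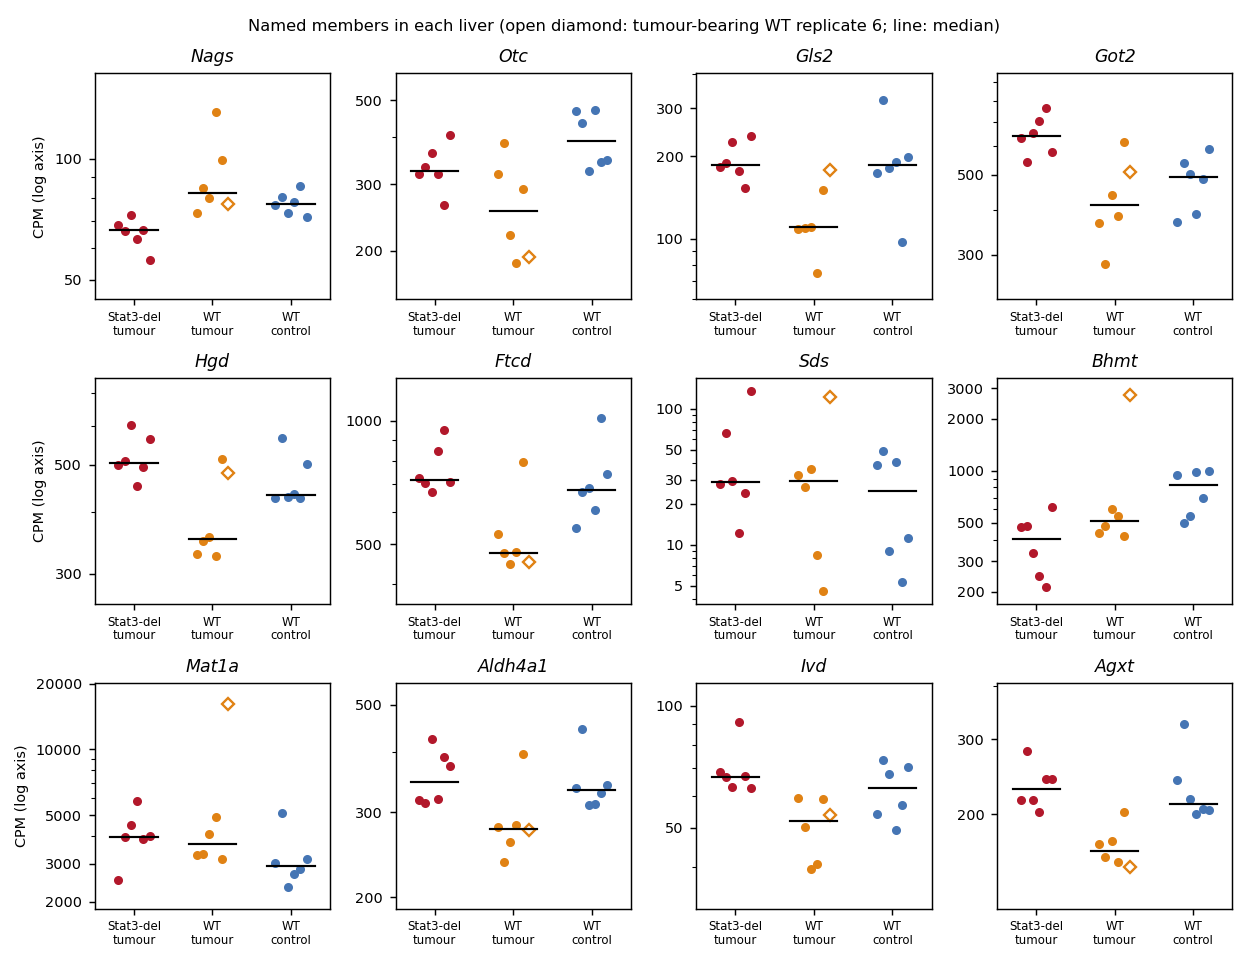
CPM (log axes) of 12 members in each liver, by group; the line is the group median and the open diamond is tumour-bearing WT replicate 6. For Nags, Ivd and Agxt the Stat3-deleted livers do not overlap the tumour-bearing WT livers, while for Bhmt and Mat1a the diamond lies far above all other livers.

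The 5 genes of phenylalanine and tyrosine breakdown all had a log2 fold change above 0 in Stat3-deleted against tumour-bearing WT livers (0.07 to 0.41), and none passed. Of all tested genes 45.9% lay above 0 in that comparison. Hgd, which opens the ring of homogentisate, had the smallest p: 453, 504 and 602 CPM in Stat3-deleted, 325, 353 and 514 CPM in tumour-bearing WT and 428, 433 and 568 CPM in control livers. Of the tumour-bearing WT livers 4 lay below every liver of the other groups, and replicates 5 and 6 lay among them. Its log2 fold change was 0.41 (SE 0.14, adjusted p = 0.0892) with all livers and 0.48 (SE 0.14, adjusted p = 0.0344) without replicate 6. Hpd, which makes homogentisate, ranged from 672 to 1868 CPM over all livers, Qdpr, which regenerates the cofactor of phenylalanine hydroxylation, from 628 to 1028 CPM, and Gstz1 and Fah, which follow Hgd, from 649 to 998 and from 446 to 832 CPM.

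Histidine breakdown gave the same picture of 4 values above 0 (0.03 to 0.54) and no call in that comparison. Ftcd, which passes the formimino group to folate, had 670, 716 and 949 CPM in Stat3-deleted, 447, 476 and 792 CPM in tumour-bearing WT and 547, 679 and 1019 CPM in control livers. Apart from replicate 5, all tumour-bearing WT livers were below the lowest Stat3-deleted liver. The log2 fold change was 0.54 (SE 0.17, adjusted p = 0.0572) for Stat3-deleted against tumour-bearing WT livers and -0.43 (SE 0.17, adjusted p = 0.196) for tumour-bearing WT against control livers, where the label-number ranges gave -0.40 and -0.47. Amdhd1 and Uroc1, the middle steps, gave 0.37 and 0.30 against tumour-bearing WT livers, with adjusted p-values of 0.280 and 0.299, and Hal, the entry step, gave 0.03.

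Sds, the serine dehydratase that sends serine and threonine carbon towards glucose, had the widest range of the 39 members. It had 12.2, 28.8 and 134 CPM in Stat3-deleted, 4.61, 29.6 and 122 CPM in tumour-bearing WT and 5.34, 24.8 and 49.1 CPM in control livers, a 29.1-fold range over the 18 livers. The groups overlapped almost fully, and the log2 fold change of Stat3-deleted against control livers, 0.94, had an SE of 0.65 (adjusted p = 0.438). Stat3-deleted against tumour-bearing WT livers gave 0.36 (SE 0.64, adjusted p = 0.812) for Sds, and 1.19 (SE 0.61, adjusted p = 0.256) without tumour-bearing WT replicate 6. Tumour-bearing WT against control livers gave 0.58 (SE 0.65, adjusted p = 0.713), and -0.26 (SE 0.61, adjusted p = 0.897) without that liver. Sdsl, a relative of Sds, ranged from 8.51 to 28.9 CPM and gave no call.

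Mat1a, which makes S-adenosylmethionine in hepatocytes and belongs to the methionine cycle, had 2531, 3981 and 5817 CPM in Stat3-deleted, 3143, 3701 and 16175 CPM in tumour-bearing WT and 2333, 2922 and 5102 CPM in control livers. All 6 tumour-bearing WT livers were above the control livers' mean of log2 CPM, though the lowest was below their mean CPM (log2 fold change 0.87, SE 0.34, adjusted p = 0.198); without replicate 6 the value was 0.23 (SE 0.21, adjusted p = 0.658), and the label-number ranges gave 0.02 and 1.48. Stat3-deleted against tumour-bearing WT livers gave -0.50 for Mat1a (SE 0.33, adjusted p = 0.438), and 0.14 (SE 0.21, adjusted p = 0.753) without replicate 6. Gnmt, which uses S-adenosylmethionine to methylate glycine, had 2876 to 5314 CPM in Stat3-deleted, 1931 to 6365 CPM in tumour-bearing WT and 2640 to 4032 CPM in control livers.

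Bhmt, which remakes methionine from homocysteine with betaine, had 213, 404 and 615 CPM in Stat3-deleted, 418, 512 and 2749 CPM in tumour-bearing WT and 496, 824 and 999 CPM in control livers. All 6 Stat3-deleted livers were below the control mean, and only Stat3-deleted replicate 6, at 615 CPM, reached the control range. The log2 fold change was -0.98 (SE 0.40, adjusted p = 0.154) against control livers and -1.15 (SE 0.40, adjusted p = 0.0964) against tumour-bearing WT livers. Without tumour-bearing WT replicate 6 the second was -0.32 (SE 0.24, adjusted p = 0.466), while the first, which does not use that liver's level, kept its size and passed. Of the sulfur-transfer enzymes, Cbs had 651 to 918 CPM in Stat3-deleted, 407 to 877 CPM in tumour-bearing WT and 380 to 806 CPM in control livers, and Cth had 109.5 to 249, 102 to 370.0 and 109 to 319 CPM in the same order of groups; neither gave a call, nor did Ahcy, which clears S-adenosylhomocysteine.

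In proline and lysine breakdown no gene passed. Aldh4a1, which makes glutamate from the proline product, had 313, 347 and 426 CPM in Stat3-deleted, 237, 277 and 395 CPM in tumour-bearing WT and 311, 333 and 445 CPM in control livers. In 5 of 6 tumour-bearing WT livers Aldh4a1 was below every Stat3-deleted and control liver (log2 fold change of Stat3-deleted against tumour-bearing WT livers 0.31, SE 0.14, adjusted p = 0.215). Prodh, the step before it, had 32.9 to 127 CPM over all livers, and Aass, the entry to lysine breakdown, 134 to 293 CPM.

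Among the branched-chain genes Ivd (chr2:118861959-118882909) changed. It had 62.7, 66.8 and 91.2 CPM in Stat3-deleted, 39.5, 51.9 and 59.2 CPM in tumour-bearing WT and 49.4, 62.5 and 73.6 CPM in control livers. Every Stat3-deleted liver lay above every tumour-bearing WT liver, a separation in that direction that 1.40% of all tested genes showed, and the control livers overlapped both groups. Ivd rose by 0.47 (SE 0.14, adjusted p = 0.0498, 6 of 6 livers above), just inside the threshold. Bckdha and Bckdhb, the subunits of the dehydrogenase that commits branched-chain keto acids to oxidation, gave 0.23 (SE 0.14, adjusted p = 0.392) and 0.07 (SE 0.14, adjusted p = 0.843) in the same comparison.

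In glycine and glyoxylate metabolism, Agxt (chr1:93135240-93145421), whose loss causes oxalate overproduction in humans, had 202, 229 and 282 CPM in Stat3-deleted, 150.0, 164 and 202 CPM in tumour-bearing WT and 200.3, 211 and 326 CPM in control livers. The lowest Stat3-deleted liver and the highest tumour-bearing WT liver differed by less than 1 CPM, so the groups were separate by a narrow margin. Agxt rose by 0.47 against tumour-bearing WT livers (SE 0.13, adjusted p = 0.0365, 6 of 6 livers above). Against control livers tumour-bearing WT livers gave -0.47 (SE 0.13, adjusted p = 0.0706, 6 of 6 below), with -0.65 and -0.27 in the label-number ranges, and Stat3-deleted livers gave 0.01 (SE 0.13, adjusted p = 0.990). Gldc, the decarboxylase of the glycine cleavage system, ranged from 40.8 to 67.2 CPM and gave no call.

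**Figure D4:**
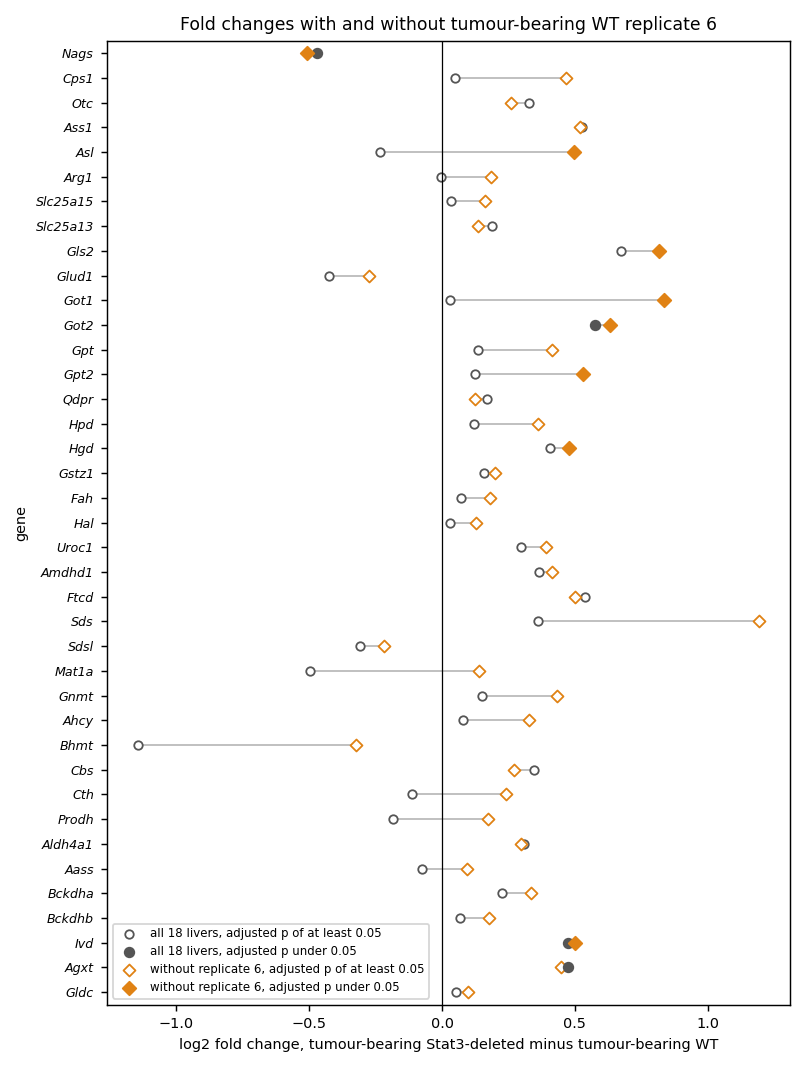
Log2 fold change of Stat3-deleted against tumour-bearing WT livers for the 39 tested members with all 18 livers (grey circles) and without tumour-bearing WT replicate 6 (orange diamonds); filled symbols passed an adjusted p of 0.05. The values of Asl (-0.23 and 0.50), Got1 (0.03 and 0.84) and Bhmt (-1.15 and -0.32) move by more than 0.7, as do those of Sds, while Nags, Got2, Ivd and Agxt move by less than 0.1.

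The 5 further lists (transporters, other aromatic, one-carbon, glycine and branched-chain genes) held 66 tested genes and were chosen with earlier results of these data known. Of the 66, 5 rose (7.58%, against 2.89% of all genes) and none fell (3.23% of all genes) with Stat3 deletion in tumour-bearing livers. Afmid, an enzyme of tryptophan breakdown, had 483 to 611 CPM in Stat3-deleted and 96.9 to 471 CPM in tumour-bearing WT livers (log2 fold change 1.28, SE 0.27, adjusted p = 0.00450). Csad, which makes hypotaurine from cysteine sulfinate, had 764 to 1668 and 377 to 867 CPM (1.18, SE 0.27, adjusted p = 0.00835). Sardh, the sarcosine dehydrogenase that follows Gnmt, rose by 0.57 (adjusted p = 0.0435), Slc38a2, an amino acid importer, by 0.77 (adjusted p = 0.0295) and Mif, which also has tautomerase activity on an aromatic substrate, by 0.77 (adjusted p = 0.00359). Without tumour-bearing WT replicate 6, 11 of the 66 rose and none fell (16.7%, against 8.04% of all genes in either direction), among them all 5 of these. Summed over the 74 listed genes, that liver had 20682.5 CPM, the highest of its group (median 13037 CPM). Leaving it out therefore moves these genes as a whole upwards here, and the count is no independent support. Between tumour-bearing WT and control livers 1 of the 66 rose (1.52%, against 1.76% of all genes) and none fell (0.490% of all genes). The 1 was Glul, the glutamine synthetase that takes up ammonia the urea cycle leaves, with 706 to 1269 against 371 to 782 CPM (0.65, SE 0.17, adjusted p = 0.0368). Between Stat3-deleted and control livers 2 of the 66 rose (3.03%, against 2.19% of all genes) and none fell (2.66% of all genes). They were Slc38a2 (0.86, adjusted p = 0.0223) and Mat2a, the methionine adenosyltransferase found mainly outside hepatocytes (0.48, adjusted p = 0.0285). Without tumour-bearing WT replicate 6, Glul missed the threshold (0.54, adjusted p = 0.0858) and Afmid fell in tumour-bearing WT livers (by 1.18, SE 0.21, adjusted p = 0.00291).

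Of 10 known regulators of amino acid metabolism, 4 passed between Stat3-deleted and tumour-bearing WT livers, where 6.12% of all genes did. The list was chosen with earlier results of these data known, and Creb3l3, Gcgr, Sirt5, Hnf4a, Cebpb and Cebpa did not pass. Foxo1, a transcription factor held back by insulin, had 95.0 to 119 CPM in Stat3-deleted and 36.6 to 93.1 CPM in tumour-bearing WT livers (log2 fold change 0.94, SE 0.20, adjusted p = 0.00450). Ppargc1a, a coactivator induced in fasting, rose by 1.50 (SE 0.32, adjusted p = 0.00596), with 9.55 to 42.3 against 4.35 to 15.1 CPM, and Klf15, which is known to drive amino acid catabolism, by 0.80 (SE 0.24, adjusted p = 0.0477). Nr3c1, the glucocorticoid receptor, fell by 0.62 (SE 0.16, adjusted p = 0.0190). Against control livers Foxo1 rose by 0.85 (adjusted p = 0.0157) and Nr3c1 fell by 0.76 (adjusted p = 0.00914), and no regulator passed between tumour-bearing WT and control livers. The same calls were made without tumour-bearing WT replicate 6.

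Markers of liver cells moved in the same comparisons. Summed over 6 hepatocyte markers the level was 102115 to 116693 CPM in Stat3-deleted, 70153 to 154011 CPM in tumour-bearing WT and 60773 to 91157 CPM in control livers. Single hepatocyte markers went different ways: in Stat3-deleted against tumour-bearing WT livers Ttr rose and Fgb fell, and in tumour-bearing WT against control livers Fgb rose. Summed over 8 neutrophil markers the level was 39.0 to 106 CPM in Stat3-deleted, 69.1 to 354 CPM in tumour-bearing WT and 23.8 to 52.2 CPM in control livers, and 4 of 5 tested markers were lower in Stat3-deleted than in tumour-bearing WT livers, and 4 of 5 were higher in tumour-bearing WT than in control livers. Summed over 8 macrophage markers it was 543 to 1660 CPM in Stat3-deleted, 547 to 1434 CPM in tumour-bearing WT and 286 to 832 CPM in control livers, and 3 of the 8 were higher in Stat3-deleted than in control livers and 1, Vsig4, in tumour-bearing WT than in control livers. Of 4 tested biliary markers, Sox9 and Spp1 fell in Stat3-deleted against tumour-bearing WT livers and Sox9 rose in tumour-bearing WT against control livers, and of 6 endothelial markers Stab2 and Clec4g rose in Stat3-deleted against control livers. Of 6 periportal hepatocyte markers, Cyp2f2 and Hsd17b13 rose with Stat3 deletion in tumour-bearing livers, where 4 of the 6 lay above 0 and 2 below. In tumour-bearing WT against control livers Cyp2f2 fell and Ctsc rose, where 3 of the 6 lay above 0 and 3 below. Of 8 pericentral markers Cyp1a2 rose with Stat3 deletion, where 3 of the 8 lay above 0 and 5 below. Glul rose in tumour-bearing WT against control livers, where 7 of the 8 lay above 0 and 1 below. No marker of these lists was at 0 in all livers, and the part of other cells or of liver zones in the members' values was not tested.

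Some members share sequence or position with other genes, and their counts are uncertain because no source used here names the strand setting of the counting. Exons on the opposite strand overlap Nags (443 bases, Gm11586), Got2 (379 bases, Gm45760), Gstz1 (465 bases, Pomt2), Qdpr, Sds, Bhmt and Gls2, and Aldh4a1 shares 1595 exon bases with Gm21969 on its own strand. In the last 300 bases of its transcripts, Ahcy matched Gm4737 at 100% over 234 bases, and Gm4737 had 10562 counts over all livers against 31626 for Ahcy. Sds shared 300 bases with Plbd2, a gene whose exons overlap those of Sds on the opposite strand (360 bases). Plbd2 had 10893 counts against 5048 for Sds. Bckdha shared 300 bases with B3gnt8, and Glud1 matched the pseudogene Glud-ps at 97.6% over 250 bases.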

How the data were processed

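RNA of 18 mouse livers was extracted with TRIzol and RNeasy columns and made into QuantSeq 3′ FWD libraries, per the labels' protocols. The authors deposited 1 table of whole-number counts per gene symbol for all libraries, not normalized. STAR and the mm10 build are named in the submitters' processing notes; the version, counter, annotation and strand setting are unknown here. Of 24421 symbols, 27 turned into spreadsheet dates (0.103% to 0.166% of counts) were left out. Totals of 5204378 to 9532978 counts limit precision for low genes.

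All 18 livers were fitted together with edgeR 4.0.16 in R 4.3.3 (TMM, filterByExpr, quasi-likelihood test, 3 groups), and p-values were adjusted by Benjamini-Hochberg over 11218 genes, with a threshold of 0.05. The fit was tested on simulated data. Groups came from the sample titles. Alternatives were other scalings and filters, DESeq2 1.42.0, limma voom 3.58.1, blocks and leaving out each liver; fits within the label-number ranges were added after seeing the data. The labels do not say that same-numbered livers are paired, and the main fit took them as unpaired. Most same-numbered control and tumour-bearing WT livers have adjacent label numbers. Same-numbered livers' deviations correlated at -0.13 to 0.31. Livers of unlike number were not compared, so these values cannot settle whether livers are paired. A replicate block was among the alternatives.

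Members and lists were chosen with earlier results of these data known. Members past the threshold, and otherwise the member of smallest p per branch, were described in full, with up to 4 called genes from each further list; Otc, Gls2, Mat1a and members singled out for tumour-bearing WT replicate 6 were chosen after their values were seen.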

Additional observations from a re-analysis of the deposited data

Results flagged for a closer look

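In 16 of 117 combinations of a member and a group, 1 liver lay far from the other 5 on the log2 CPM scale, which means that its gap to the nearest liver took more of the group's range than the 95% critical value of Dixon's test allows. Chance flags about 1 in 20 groups. The share was 15.4% in Stat3-deleted, 20.5% in tumour-bearing WT and 5.13% in control livers, against 6.21%, 6.71% and 5.97% of all tested genes in those groups.

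Tumour-bearing WT replicate 6 lay above the other 5 livers for Got1 (gap of 0.859 of the range), Bhmt (0.810), Asl (0.764), Ahcy (0.749) and Mat1a (0.728). Replicate 5 of the same group lay above for Ftcd (0.708) and Aldh4a1 (0.661), and replicate 4 lay below for Amdhd1 (0.784). Among Stat3-deleted livers, replicate 4 lay above for Arg1 (0.719) and Ivd (0.754), replicate 5 above for Cbs (0.777), replicate 6 above for Amdhd1 (0.640) and below for Sdsl (0.888), and replicate 1 below for Bckdhb (0.684). Among control livers, replicate 2 lay above for Aldh4a1 (0.735) and replicate 4 above for Slc25a13 (0.667).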

How the results depend on the processing

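For Stat3-deleted against tumour-bearing WT livers, the count of 4 members called became 1 with no filter on low counts, 2 with the pair of groups alone, 7 with DESeq2 and 7 with limma voom, and 0 to 8 with 1 liver left out; all genes called numbered 1097 with limma voom. For tumour-bearing WT against control livers, members called numbered 2 with library totals, 2 with DESeq2, 1 with limma voom and 0 to 2 with 1 liver left out. All genes called there numbered 450 with DESeq2, 128 with the pair of groups alone, 126 with the label-number range as a block, 38 and 50 within the lower and higher range, and 132 to 462 with 1 liver left out. For Stat3-deleted against control livers, members called numbered 2 with limma voom, 2 with the pair of groups alone and 0 to 2 with 1 liver left out, and all genes called 865 with DESeq2, 1318 with limma voom, 894 with the pair of groups alone and 258 to 783 with 1 liver left out. With the replicate block, members called numbered 4, 0 and 1 in these comparisons: Ftcd passed (adjusted p = 0.0117) and Ivd did not (0.0742) in the first, and Bhmt passed (0.0427) in the last. For Stat3-deleted against tumour-bearing WT livers, Asl reversed: its log2 fold change was 0.50, with a call, without tumour-bearing WT replicate 6 and -0.23 with all livers, and it ranged from -0.38 to 0.50 with 1 liver left out. The cause of these moves was not tested. Low counts limit Ass1 (13 to 78) and Amt (at most 4), and why they are low was not tested.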
